A study of Mus musculus with 4 samples.

Results

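The granins are the acidic cargo proteins of dense-core secretory granules, and 6 of the 29161 genes of the count table were examined as members: Chga (chromogranin A), Chgb (chromogranin B), Scg2 (secretogranin II), Scg3 (secretogranin III), Scg5 (also called 7B2) and Vgf. They were chosen by gene symbol and followed through 3 classes of sorted intestinal cells whose rules do not use a granin. A cell was called Tph1-high at 200 CPM (counts per 1000000 counts of the cell) or more of Tph1, which encodes the rate-limiting enzyme of serotonin synthesis in enterochromaffin cells. It was called peptide-hormone-high at 1000 CPM or more of Cck, Gip, Gcg or Ghrl, which encode cholecystokinin, GIP, the glucagon-like peptides and ghrelin. It was called Neurog3-positive at 5 counts or more of Neurog3, the transcription factor that starts endocrine differentiation.

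Granins aggregate with hormones in the trans-Golgi network, which helps to load and shape the granule, and several are cut into peptides that are released with the hormone. Chromogranin A is the general histological marker of neuroendocrine cells. Secretogranin III binds chromogranin A and the cholesterol-rich granule membrane. The product of Scg5 is the chaperone of the prohormone convertase encoded by Pcsk2. The product of Vgf is a precursor of several neuroendocrine peptides.

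The cells came from enteroids, which are epithelial mini-guts grown from intestinal stem cells, made from female CD1 mice with 1 Neurog3eYFP allele and cultured for 5 to 8 days with R-spondin-1, EGF and Noggin. Living (DAPI-negative) eYFP-positive cells were sorted at 1 per well, so that every cell here had expressed or inherited the reporter protein, and no reporter-negative cells were analysed here. There were 4 plates with 92 sorted cells and 4 empty wells each. Plate 1 is duodenum at 39 weeks of age, plates 2 and 3 are duodenum at 12 weeks, and plate 4 is jejunum at 12 weeks. The labels do not say how many mice gave a plate, and p-values measure only the spread between these plates. Some descendants of Neurog3-expressing cells become goblet or Paneth cells, and the reporter protein can outlast the Neurog3 transcript.

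The deposited table held 290 cells (72, 83, 72 and 63 in plates 1 to 4), with 202711 to 2312044 counts per cell and 23893272 to 46490618 counts per plate. By the rules, 97 cells were Tph1-high, 50 peptide-hormone-high and 50 Neurog3-positive, and 22 cells met more than 1 rule. The tests use the cells that met exactly 1 rule: 77 Tph1-high cells (17, 22, 11 and 27 in plates 1 to 4), 45 peptide-hormone-high cells (2, 20, 9 and 14) and 31 Neurog3-positive cells (4, 7, 16 and 4). They also use 115 cells that met none, called unclassed (45, 29, 27 and 14). Few cells lay near a rule's limit for Tph1 (6 cells within 2-fold) or Neurog3 (7 cells with 3 to 7 counts), but 22 lay within 2-fold of the limit for the highest peptide hormone.

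Some limits of the plates bear on the granins. Scg3 had 0 counts in all 72 cells of plate 1, and so did 7 other genes, Gcg, Gip, Isl1, Gdap1l1, Gmnn, Gng4 and Krt20, that had at least 1000 counts in every other plate. For plates 2, 3 and 4 there was no such gene, among 3267 genes with at least 1000 counts in all plates. In plate 1 a peptide-hormone-high cell could therefore be found only through Cck or Ghrl, and nothing about Scg3 can be read there. A low level of Chgb was counted in every cell of the table. The lowest Chgb values of unclassed cells were 187, 236, 95.8 and 434 CPM in plates 1 to 4, and some cells of other classes were lower. The 34 cells with at least 5 goblet or Paneth markers at 500 CPM or more were taken as cells that should lack granins. They had a Chgb median of 302 CPM. Their Chga ranged from 23.2 to 3193 CPM in 5 cells of plate 2, and from 151 to 5208 CPM in 6 of plate 4. A Chgb level in the range of these cells was therefore not read as expression, and the same holds for Chga in plates 2 and 4. This limit is a cautious one. The upper end of each Chga range is 1 cell, and whether these cells express Chga was not tested. In plate 4 all 63 cells were at 100 CPM or more of Chga.

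Sequences around the transcription start are shown first for the 3 members the results turn on, so that their shared letters can be set beside their levels. They run from 250 bases before to 50 bases after the RefSeq start on GRCm38.p6. Capitals mark TGACG or its reverse complement CGTCA, the core of the cAMP response element bound by CREB and related factors. Chga is read from chr12:102554691-102554990 on the plus strand, Chgb from chr2:132781392-132781691 on the plus strand, and Scg2 from chr1:79439977-79440276 on the minus strand.
Chga: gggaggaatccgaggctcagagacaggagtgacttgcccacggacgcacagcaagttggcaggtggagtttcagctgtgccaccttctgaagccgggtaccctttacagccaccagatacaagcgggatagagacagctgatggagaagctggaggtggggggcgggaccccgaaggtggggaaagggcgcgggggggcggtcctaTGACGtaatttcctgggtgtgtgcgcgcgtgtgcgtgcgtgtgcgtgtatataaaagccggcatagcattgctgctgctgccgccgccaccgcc
Chgb: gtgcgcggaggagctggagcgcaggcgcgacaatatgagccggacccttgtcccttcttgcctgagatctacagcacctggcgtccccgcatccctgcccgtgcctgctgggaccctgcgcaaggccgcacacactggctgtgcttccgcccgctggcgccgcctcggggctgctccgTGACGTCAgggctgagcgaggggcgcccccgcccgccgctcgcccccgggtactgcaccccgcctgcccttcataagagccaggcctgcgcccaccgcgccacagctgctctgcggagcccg
Scg2: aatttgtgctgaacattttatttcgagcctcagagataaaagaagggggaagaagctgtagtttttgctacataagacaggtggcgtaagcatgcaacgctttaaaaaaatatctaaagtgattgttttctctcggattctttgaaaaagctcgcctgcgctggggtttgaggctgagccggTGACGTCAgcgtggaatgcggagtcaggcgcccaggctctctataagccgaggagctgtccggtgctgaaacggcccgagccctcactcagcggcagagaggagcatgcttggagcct

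The full palindrome TGACGTCA starts 72 bases before the start of Chgb and 68 bases before that of Scg2, and Chga carries TGACGTAA at 44 bases before. RefSeq windows were found for 5 of the 6 granins, all but Vgf. All 5 held TGACG on either strand, against 20.8% of 32851 mouse promoter windows of the same length, and 2 of 5 held TGACGTCA, against 1.79%. TGACG lies within TGACGTCA, so the counts overlap. CAGATG, an E-box, the class of motif bound by factors such as those encoded by Neurog3 and Neurod1, was in 0 of the 5 and in 17.2% of all windows. The motifs were picked with these windows in view, and a match is a description of letters only. The genes themselves are protein-coding loci on GRCm38, spanning chr12:102554969-102565028 (Chga, plus strand), chr2:132781278-132795079 (Chgb, plus), chr1:79434669-79440120 (Scg2, minus), chr9:75643189-75684056 (Scg3, minus), chr2:113776362-113829121 (Scg5, minus) and chr5:137026392-137033351 (Vgf, plus).

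Chgb was the granin that set Tph1-high cells apart most evenly. In counts summed over the Tph1-high cells of a plate it stood at 74506, 96288, 65221 and 70302 CPM in plates 1 to 4. No Tph1-high cell was low: the 77 single cells ran from 10336 to 203752 CPM, with a median of 72025. The sums of peptide-hormone-high cells were 15178, 8094 and 10469 CPM in plates 2 to 4, and the 2 cells of plate 1 gave 537. Those of Neurog3-positive cells were 3338 in plate 2 and 1920 in plate 3, and with only 4 cells each 23928 in plate 1 and 2422 in plate 4. The unclassed sums were 5806, 7173, 2538 and 5241 CPM. No Tph1-high sum overlapped a sum of these 3 other classes.

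Within a plate, Chgb in Tph1-high cells was 6.34 to 8.06-fold that of peptide-hormone-high cells (mean 7.04 ± 0.902 SD, n = 3 plates), and 28.8-fold and 34.0-fold that of Neurog3-positive cells. In 1 edgeR quasi-likelihood fit over 13 sums of at least 5 cells with plate as a block, the log2 difference from peptide-hormone-high cells was 2.77 ± 0.17 (SE, adjusted p = 0.00011). In Neurog3-positive cells Chgb was lower than in Tph1-high cells, with a log2 difference of -4.71 ± 0.23 (edgeR adjusted p = 5.68e-05), and lower than in peptide-hormone-high cells, with one of -1.94 ± 0.20 (0.00919). Against unclassed cells it was 3.76 ± 0.16 higher in Tph1-high cells (edgeR adjusted p = 1.53e-05), which held in all 18 alternatives run. The difference from Neurog3-positive cells was lost only where Tph1-high meant 1000 CPM (0.0606).

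The other Chgb calls were less firm. The difference between Tph1-high and peptide-hormone-high cells missed the threshold when only those 2 classes were fitted (edgeR adjusted p = 0.0688), with sums of 3 cells or more (0.257) and with Tph1-high set at 1000 CPM (0.0758). The difference between Neurog3-positive and peptide-hormone-high cells was lost in 8 of 18 alternatives. Among these were leaving out plate 2 (edgeR adjusted p = 0.190), leaving out plate 4 (0.0964) and leaving out the plate block (0.0587). Its direction turned with Tph1-high set at 1000 CPM (log2 difference 0.75) and with cells of more than 1 class placed in 1 (0.93).

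Chga was also highest in Tph1-high cells, with a wider spread among cells, from 0 to 29212 CPM. The Tph1-high sums were 2047, 9724, 4563 and 11239 CPM in plates 1 to 4. Peptide-hormone-high sums were 1203, 479 and 1488 CPM in plates 2 to 4, so the sums of these classes did not overlap. The peptide-hormone-high sums of plates 2 and 4 lay within the range of single goblet or Paneth marker-high cells of the same plate. Neurog3-positive cells gave 317 CPM in plate 2 and 362 in plate 3, and unclassed cells 165, 1671, 176 and 987 in plates 1 to 4. Chga in Tph1-high cells was 7.55 to 9.52-fold that in peptide-hormone-high cells of the same plate (mean 8.39 ± 1.02 SD, n = 3 plates), yet the log2 difference of 3.09 ± 0.54 missed the threshold (edgeR adjusted p = 0.113). DESeq2 called that difference (adjusted p = 5.37e-06), as did limma on cell means (0.0079) and edgeR with no filter on low counts (0.0148).

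Chga was called higher in Tph1-high than in unclassed cells (log2 difference 3.26 ± 0.48, edgeR adjusted p = 0.0076), and lower in Neurog3-positive than in Tph1-high cells (-3.90 ± 0.68, 0.0321). Both calls rest on few plates. The second was lost whichever plate was left out (edgeR adjusted p = 0.0662 to 0.106) and without the block (0.0832). The first was lost without plate 1 (0.0573), without plate 4 (0.0765) and without the block (0.0902). The second was also lost with only the 2 classes fitted (edgeR adjusted p = 0.182), and the first with Tph1-high set at 1000 CPM (0.109). With sums of 10 cells or more the log2 difference of the second was -2.77. The log2 difference kept its sign in all of these.

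In plate 1, 9 of 17 Tph1-high cells were under 100 CPM of Chga, with values of 0 to 24.5, and the other 8 held 927 to 11588 CPM. In plate 3, 2 of 11 were under that level, and in plate 2, 0 of 22. Plate 4 is not set beside these, since all its cells were at 100 CPM or more. The 9 low cells of plate 1 had a Chgb median of 58796 CPM, against 82056 in the other 8, and a Tph1 median of 1354 CPM against 1427. Their Tac1, the tachykinin precursor of enterochromaffin cells, had a median of 3133 CPM against 1695. The 2 low cells of plate 3 went the other way for Tac1, with a median of 1954 CPM against 5003 in the other 9. Their Chgb median was 20738 CPM against 69972. This split was chosen after its values had been seen and has no test, and plate 1 differs from plates 2 and 3 in age as well as in its library, which cannot be told apart.

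**Figure D1:**
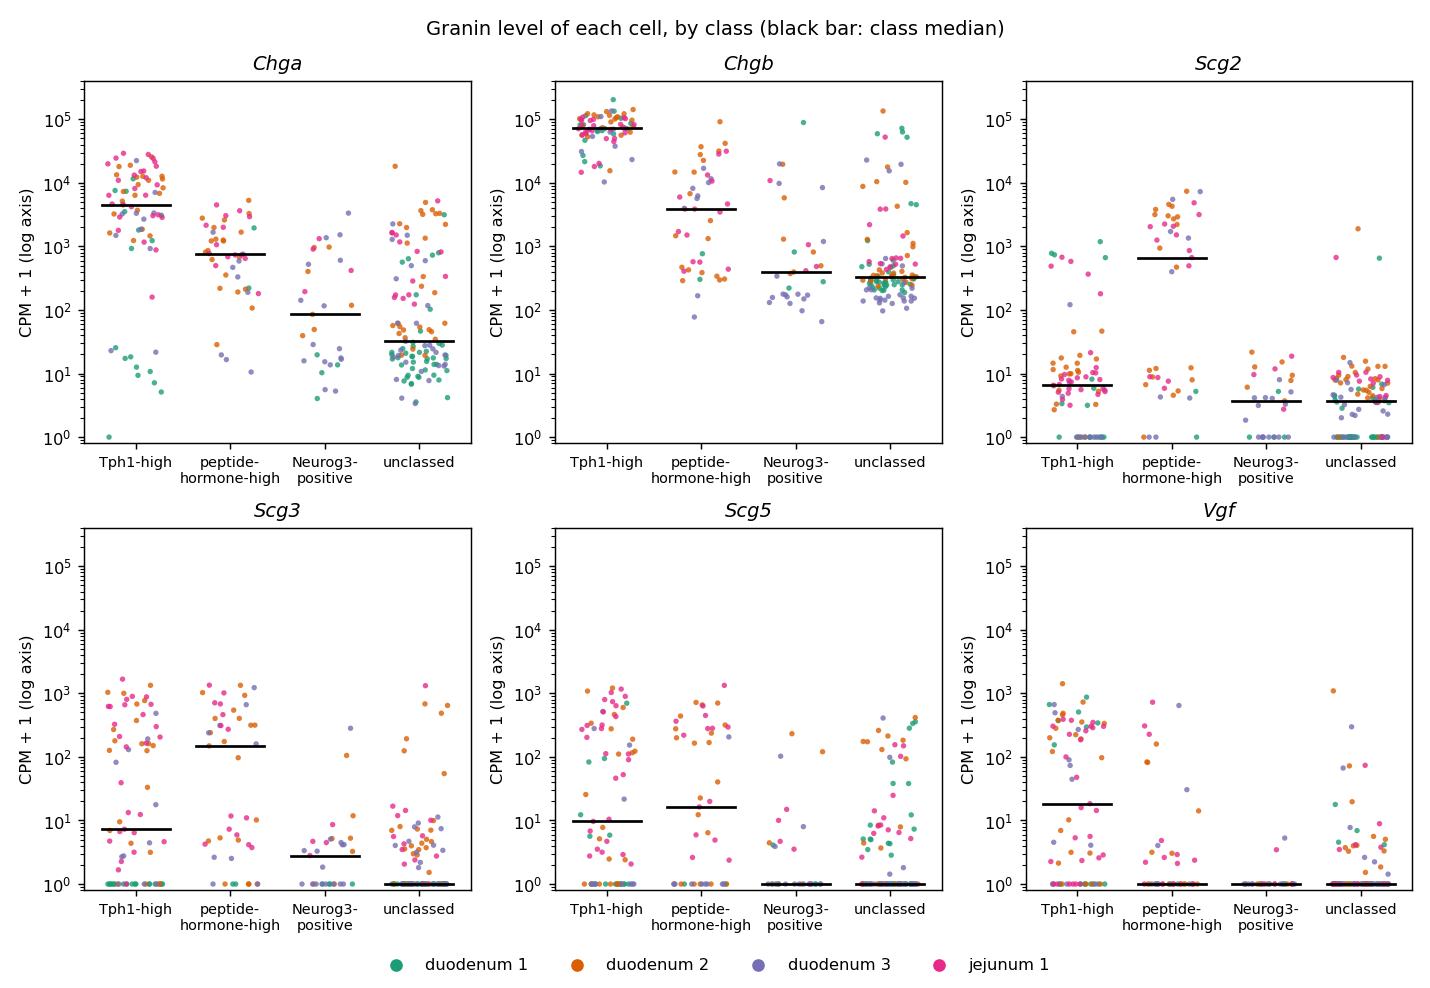
Level of each granin in each cell (CPM + 1, log axis) for the 77 Tph1-high, 45 peptide-hormone-high, 31 Neurog3-positive and 115 unclassed cells, coloured by plate, with a black bar at the class median. Chgb lies above 10000 CPM in every Tph1-high cell, and Scg2 splits the peptide-hormone-high cells into a high and a low set. Vgf is near 0 in Neurog3-positive cells and in most unclassed cells.

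Scg2 was instead highest in peptide-hormone-high cells. In summed counts of peptide-hormone-high cells it stood at 1973, 2381 and 1705 CPM in plates 2 to 4, and at 196, 10.4, 14.9 and 88.3 CPM in Tph1-high cells of plates 1 to 4. Neurog3-positive cells had 10.1 CPM in plate 2 and 1.58 in plate 3, and unclassed cells 13.3, 67.7, 2.31 and 58.1. The peptide-hormone-high sums were 19.3 to 190-fold above the Tph1-high sums of the same plate and did not overlap the sums of the 3 other classes. The 2 Ghrl-led cells of plate 1, which were not tested, held 1 count of Scg2 between them.

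The size of the Scg2 difference came with a large error. The log2 value, Tph1-high minus peptide-hormone-high, was -5.94 ± 1.35 (edgeR adjusted p = 0.269), which missed the threshold, while DESeq2 (4.72e-07) and limma on cell means (5.12e-05) called it. Against unclassed cells the log2 difference was 6.64 ± 1.24 (edgeR adjusted p = 0.0755), and against Neurog3-positive cells the log2 value, Neurog3-positive minus peptide-hormone-high, was -8.76 ± 1.82 (0.127). Both were called by DESeq2 (adjusted p = 8.33e-09 and 2.29e-09). In the first contrast the difference was smallest in plate 4. The Tph1-high sum there contained 5 of 27 cells at 100 CPM or more, against 0 of 22 in plate 2 and 1 of 11 in plate 3. Plate 1, which had no tested peptide-hormone-high sum, had 4 of 17 Tph1-high cells at that level.

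Scg2 was present in a subset of cells. With at least 5 counts it was found in 31 of 45 peptide-hormone-high cells and in 33 of 77 Tph1-high cells. By plate, these were 0, 70.0, 55.6 and 85.7% of peptide-hormone-high cells and 23.5, 45.5, 9.09 and 66.7% of Tph1-high cells in plates 1 to 4. At 100 CPM or more Scg2 was in 11 of 20 and 10 of 14 peptide-hormone-high cells of plates 2 and 4. The Tph1-high cells at that level were 0 of 22 and 5 of 27 in the same plates. Most Tph1-high cells there that passed 5 counts thus held a low level. After each cell was thinned to 100000 counts, these became 26 of 45 and 11 of 77. In goblet or Paneth marker-high cells Scg2 was found in 2 of 34 before thinning and in 0 after. Of these 34 cells, 17 came from plate 1, the plate of lowest median depth. The median depth was 507319 counts in peptide-hormone-high, 527643 in Tph1-high and 400032 in goblet or Paneth marker-high cells.

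None of Scg3, Scg5 and Vgf passed the threshold in a comparison of the 4 classes. Scg3 in plates 2, 3 and 4 stood at 347, 82.3 and 329 CPM in Tph1-high cells and at 282, 317 and 314 in peptide-hormone-high cells. These overlapped, and the log2 difference of -0.66 ± 0.97 was within its error (edgeR adjusted p = 0.96). It turned positive without plate 3 (0.14). In Neurog3-positive cells Scg3 was 18.0 CPM in plate 2 and 15.1 in plate 3, against 65.3 and 1.79 in unclassed cells.

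Scg5 had summed levels of 56.4, 218, 83.5 and 304 CPM in Tph1-high cells of plates 1 to 4 and 194, 31.4 and 233 in peptide-hormone-high cells of plates 2 to 4, which again overlapped. The log2 difference was 0.48 ± 0.50 (edgeR adjusted p = 0.917). Neurog3-positive cells had 47.9 and 5.04 CPM in plates 2 and 3. Their log2 difference from Tph1-high cells was -2.80 ± 0.66 (edgeR adjusted p = 0.101), which DESeq2 called (0.000343).

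Vgf stood at 197, 237, 164 and 118 CPM in Tph1-high cells of plates 1 to 4, the narrowest range over plates of these 3 genes in that class. Peptide-hormone-high cells had 19.9, 52.8 and 85.7 CPM in plates 2 to 4, below every Tph1-high sum, with a log2 difference of 1.83 ± 1.32 (edgeR adjusted p = 0.821). Of the 18 alternatives, only limma on cell means called it (0.0133). Neurog3-positive cells held 4 counts of Vgf in 31 cells: 0 in plates 1 and 2, and 2 in each of plates 3 and 4. In plate 2 Vgf was therefore at least 219-fold higher in Tph1-high cells, taking 3 counts as the limit for the 7 Neurog3-positive cells together. In plate 3 the ratio was 570, with a 95% counting interval of 158 to 4708. Of the 11 Tph1-high cells there, 3 gave 88.8% of the Vgf counts, a spread between cells that the interval does not cover. The fit did not call the Vgf difference between these 2 classes (edgeR adjusted p = 0.0813), while 6 of 18 alternatives did. Low Vgf was not particular to Neurog3-positive cells. Tph1-high sums were 5.00 to 281-fold the unclassed sums of the same plate (n = 4 plates). Among the 115 unclassed cells, the 3 with the most Vgf counts gave 89.4% of the class's Vgf counts.

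**Figure D2:**
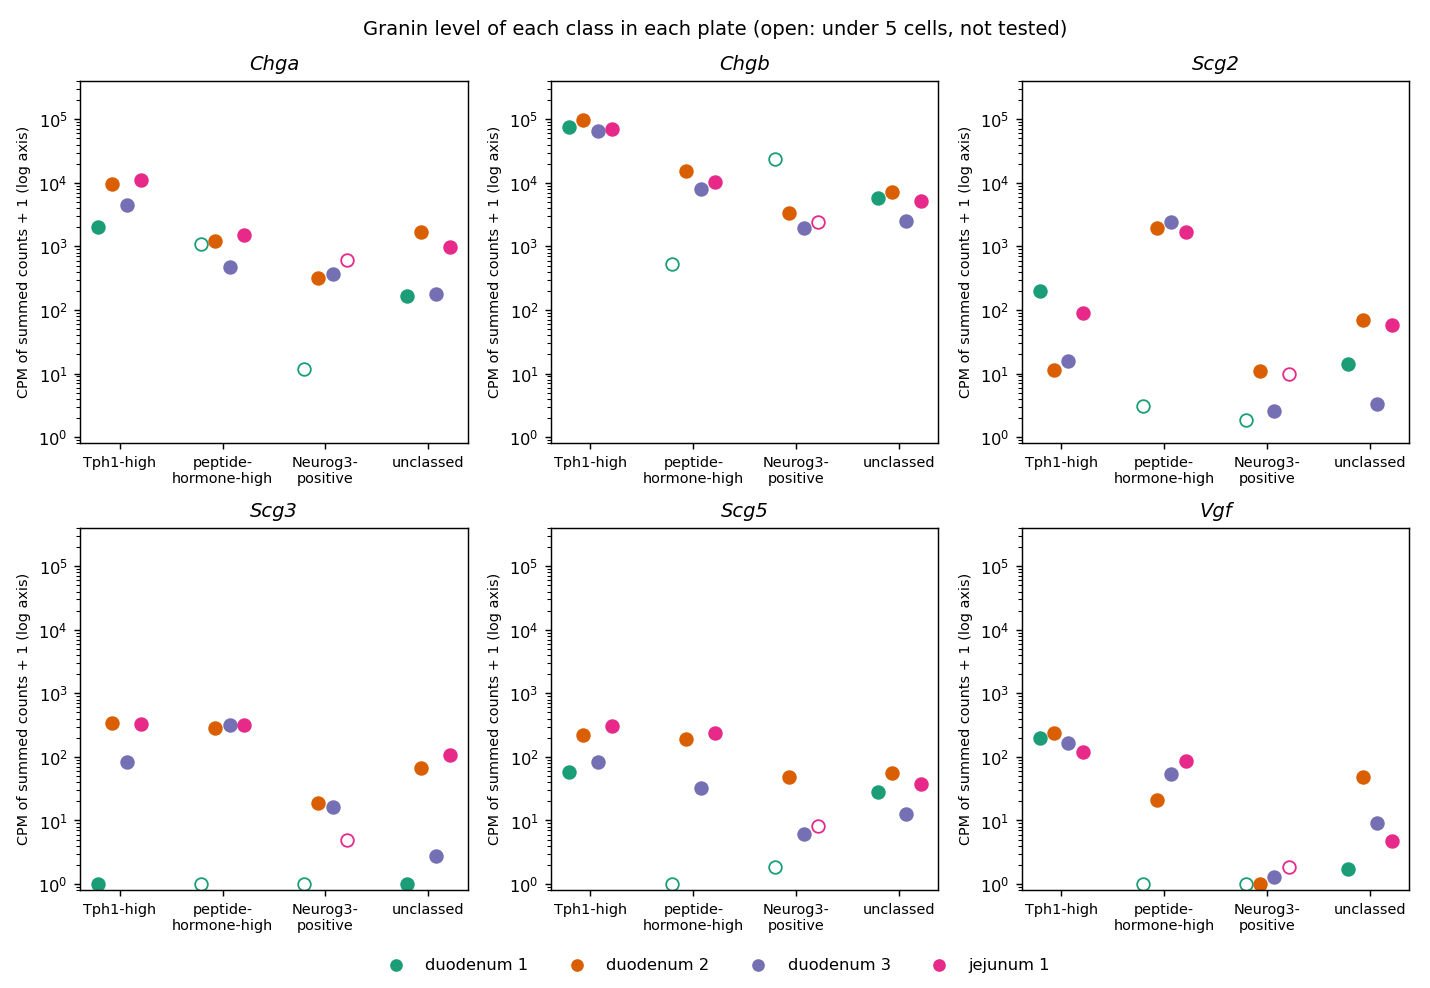
Granin level of each class in each plate (CPM of summed counts + 1, log axis), with filled points for the sums of at least 5 cells that entered the test and open points for smaller sums. Tph1-high points lie above all others for Chgb (65221 to 96288 CPM) and peptide-hormone-high points of plates 2 to 4 above all others for Scg2 (1705 to 2381 CPM); Scg3 is at 0 in plate 1.

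Counted over the 6 members, Chgb alone was called between Tph1-high and peptide-hormone-high cells, where edgeR called 0.133% of the 15049 genes tested. Against Tph1-high cells, Neurog3-positive cells were called lower for 2 (Chga and Chgb), with 1.14% of genes called in either direction. Against peptide-hormone-high cells they were called lower for 1 (Chgb), with 0.106% called. Tph1-high cells were called higher than unclassed cells for 2 (Chga and Chgb), with 1.70% called. The median log2 difference of the 6 members was 1.16 in the first of these, -3.48, -3.02 and 2.75 in the others, beside medians over all genes of 0.08, -0.44, -0.25 and -0.04.

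Peptide-hormone-high cells were called different from unclassed cells for 0 of 6 by edgeR, with 0.186% of genes called. Of the 6, 4 had an unadjusted p under 0.05, DESeq2 called 4 and limma 3. No share of all genes is given beside these counts, and alternatives called up to 1970 genes there. The counts are therefore not read as a result about the granins. The granin nearest the threshold in edgeR was Chgb, at 15178, 8094 and 10469 against 7173, 2538 and 5241 CPM in plates 2 to 4 (log2 difference 0.99 ± 0.16, edgeR adjusted p = 0.0587). Neurog3-positive cells were called different from unclassed cells for 0 of 6 (2 at an unadjusted p under 0.05, 1 by DESeq2, 0 by limma). Alternatives called up to 1607 genes in that contrast, so these counts are read no further. There edgeR called 1 gene, 0.00664%, and this was Neurog3 itself, which defines the class. The medians of the 6 members were 1.94 and -0.88 in these contrasts, beside -0.24 and -0.44 over all genes.

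**Figure D3:**
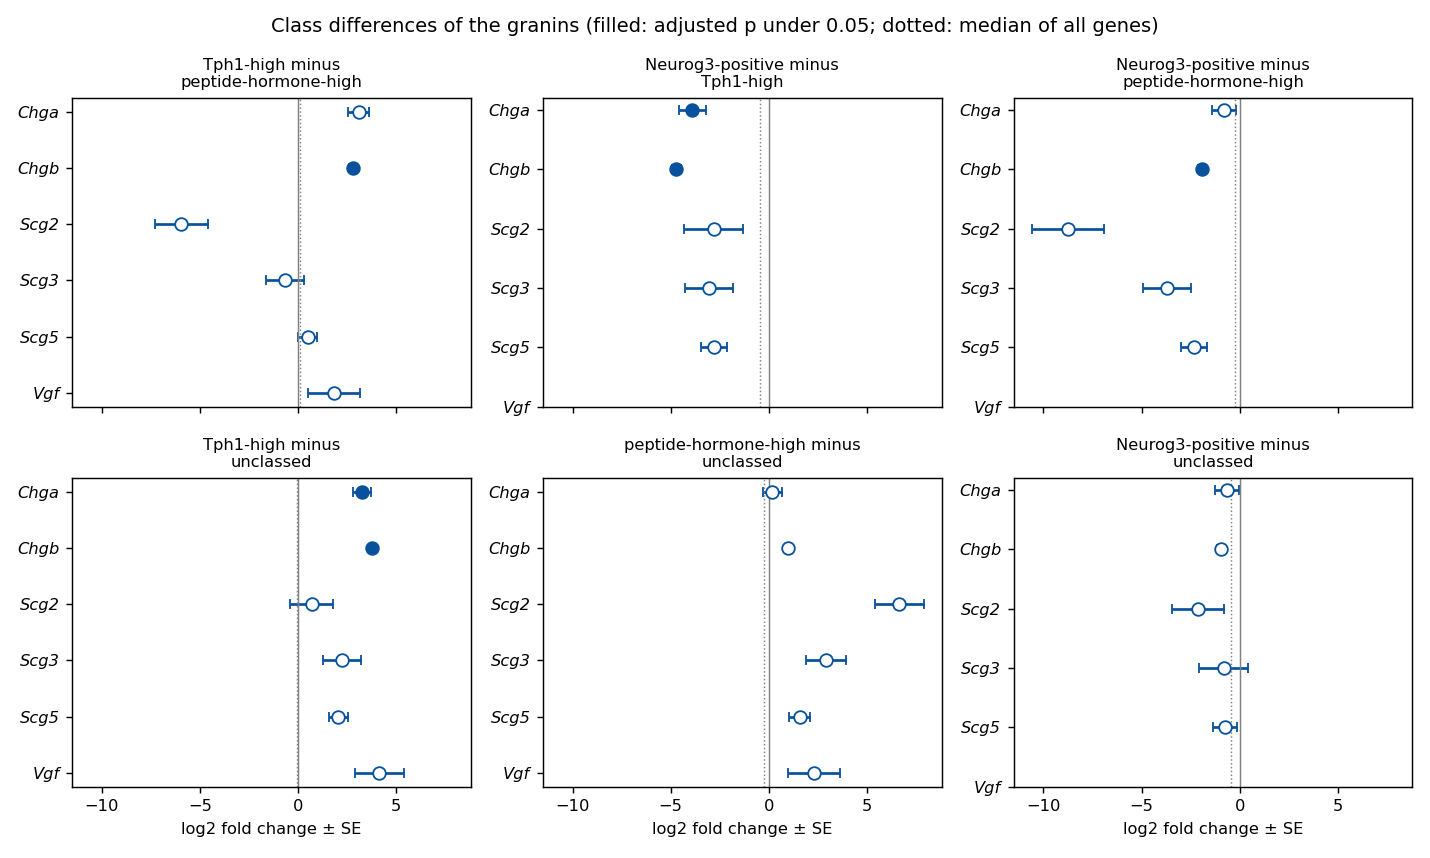
Log2 fold change ± SE of each granin in the 6 class comparisons (edgeR, 13 sums, plate as a block), filled where the adjusted p is under 0.05, with a dotted line at the median of all genes. Chgb is filled in 4 panels and Chga in 2; Vgf is not drawn in comparisons with Neurog3-positive cells, whose tested sums held 0 and 2 counts of it.

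Unclassed and Neurog3-positive cells also differed from the hormone classes in markers of other secretory cells. The 8 goblet markers summed to 17006 to 24568 CPM per plate in unclassed cells and 6910 to 27044 in Neurog3-positive cells, against 544 to 1663 in Tph1-high and 1307 to 8587 in peptide-hormone-high cells. The 6 Paneth markers summed to 3750 to 12789, 229 to 33061, 226 to 379 and 415 to 3967 CPM in the same order. For goblet markers the unclassed range lay above both hormone classes, and the Neurog3-positive range lay above that of Tph1-high cells only. For Paneth markers the unclassed range lay above that of Tph1-high cells. The other ranges set against the hormone classes overlapped. Among the goblet markers, Clca1 had 0 counts in the 3 named classes. The part of these cells in the granin differences was not tested beyond 1 alternative, chosen after seeing the data, which left the 34 goblet or Paneth marker-high cells out of the unclassed cells. Chga and Chgb kept their calls against unclassed cells there, at log2 differences of 3.09 (edgeR adjusted p = 0.0135) and 3.26 (6.20e-05). Unclassed cells were not free of hormone genes. Their 8 peptide hormone markers summed to 45.1 to 5787 CPM per plate, against 14528 to 124654 in peptide-hormone-high cells. In 1 unclassed cell of plate 2, hormone genes with Tph1 and Tac1 made up 16.2% of the counts.

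A few cells carried much of the Chgb of unclassed and Neurog3-positive cells. Among unclassed cells, 12 of 115 held 10000 CPM or more of Chgb, and the 3 cells with the most Chgb counts gave 50.8% of the class's Chgb counts. Among Neurog3-positive cells, 4 of 31 reached 10000 CPM, and 1 cell in plate 1 at 88966 CPM gave 49.9% of all Chgb counts of the class. In Tph1-high cells the 3 cells with the most Chgb counts gave 9.83%. The single-cell medians of Chgb in these classes were 396 CPM (Neurog3-positive) and 326 CPM (unclassed).

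Taken as a share of all counts in a cell, the 6 granins made up 7.70, 10.7, 7.01 and 8.24% of the summed counts of Tph1-high cells in plates 1 to 4, and up to 21.6% in 1 cell of plate 1. In peptide-hormone-high cells of plates 2 to 4 they made up 1.88, 1.14 and 1.43%. In Neurog3-positive cells of plates 2 and 3 the share was 0.373 and 0.230%, and in unclassed cells of plates 1 to 4 it was 0.601, 0.908, 0.274 and 0.643%. Goblet or Paneth marker-high cells had 0.0347, 0.125, 0.0325 and 0.199%. A CPM value of any other gene in a Tph1-high cell is lowered by the granins' own share.

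The 17 cells that were both Tph1-high and Neurog3-positive (3, 3, 8 and 3 in plates 1 to 4) had Chgb levels near those of Tph1-high cells. Their Chgb sums were 89069, 70833, 49413 and 55357 CPM, and every one of the 17 held at least 17804 CPM. Chga stood at 1171, 2627, 1396 and 3305 CPM, under the Tph1-high sum of its plate in all 4 plates. Scg5 stood at 116, 230, 148 and 626 CPM.

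These cells were tested as a class of their own in a second edgeR fit with sums of at least 3 cells, a choice made after the data had been seen. Against Neurog3-positive cells, 3 of 6 granins were called higher: Chgb by 3.35 ± 0.45 on the log2 scale (adjusted p = 0.000763), Scg5 by 4.39 ± 0.82 (0.0111) and Chga by 2.75 ± 0.65 (0.0483). There edgeR called 1.31% of 13631 genes. The Chga call was lost without any 1 of the 4 plates (edgeR adjusted p = 0.0588 to 0.234), and the Scg5 call without plate 3 (0.149), without plate 4 (0.208) or without the block (0.0759). Chgb kept its call in the 7 alternatives. Against Tph1-high cells, edgeR called 0 of 6, with 0.0587% of genes called and 1 granin, Chga, at an unadjusted p under 0.05 (log2 difference -1.58 ± 0.60, adjusted p = 0.305). The median of all genes was shifted by -0.84 in that contrast and by -0.28 in the one before.

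The 45 peptide-hormone-high cells were not uniform. Split by whichever of the 4 hormones was highest, 21 were led by Cck, 8 by Gip, 5 by Gcg and 11 by Ghrl. Median Chga was 2787 CPM in Ghrl-led cells and 733, 716 and 498 in Cck-, Gip- and Gcg-led cells. Chgb was lowest where Chga was highest, with a median of 566 CPM in Ghrl-led cells, within the range of the goblet or Paneth marker-high cells (95.8 to 1457 CPM), against 3477, 12735 and 11594 in the others. Scg2 was at 100 CPM or more in 2 of 11 Ghrl-led, 12 of 21 Cck-led, 7 of 8 Gip-led and 5 of 5 Gcg-led cells.

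The plates did not contribute evenly to this split, since Gip and Gcg had 0 counts in plate 1 and 4 of the 5 Gcg-led cells came from plate 4. Within plate 2, 4 Ghrl-led cells held 1301 to 5304 CPM of Chga and 288 to 1471 of Chgb, and 5 Gip-led cells 106 to 858 and 6753 to 41869, with no overlap for either gene between these 2 groups. Within plate 4, 4 Ghrl-led cells held 407 to 1712 CPM of Chgb and 4 Gcg-led cells 4660 to 31479, again with no overlap. Their Chga, at 1999 to 4500 and 180 to 686 CPM, lay within the range of the goblet or Paneth marker-high cells of that plate, as did most Chga values of plate 2 just given. Cck-led cells spanned these groups: 11 in plate 2 held 27.5 to 2606 CPM of Chga and 295 to 91486 of Chgb, and 4 in plate 4 held 733 to 2154 and 438 to 28385. Other cells also overlapped: the 2 Gip-led cells of plate 4 held 1064 and 3641 CPM of Chga, and the 1 Ghrl-led cell of plate 3 held 5680 CPM of Chgb, above the 3977 of the 1 Gip-led cell there. The split was made after the data had been seen, its cells are not replicates, and it has no test. The share of all genes that separate the same cells was not counted. The lack of overlap is therefore not read as a result about the granins.

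**Figure D4:**
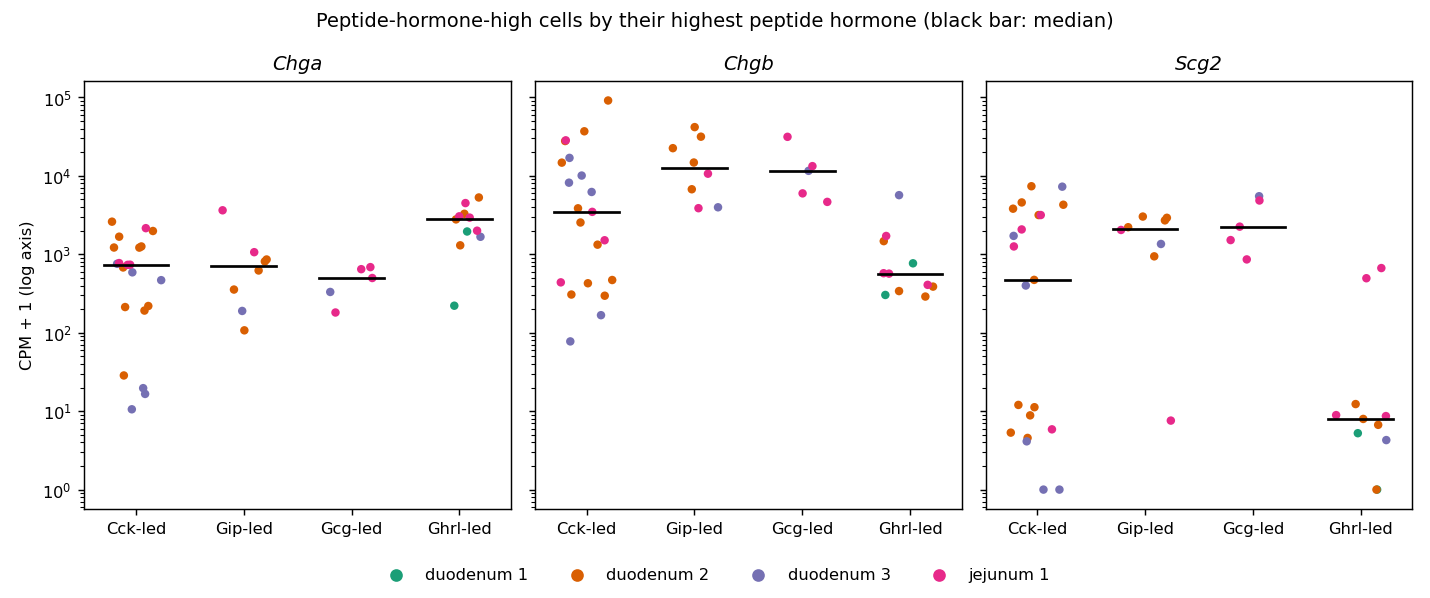
Chga, Chgb and Scg2 in the 45 peptide-hormone-high cells (CPM + 1, log axis), grouped by the hormone of highest CPM and coloured by plate, with a black bar at the median. The 11 Ghrl-led cells have the highest median of Chga (2787 CPM) and the lowest of Chgb (566) and Scg2 (6.96). Their Chgb median and several of their Chga values lie within the ranges of goblet or Paneth marker-high cells. Those levels are not read as expression. The Gip-led and Gcg-led cells have Chgb medians of 12735 and 11594 CPM.

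Co-expression was described by the Spearman rank correlation of log2(CPM + 10) over the cells of a plate, which share a library and differ in depth. Chga and Chgb were the most closely related pair in plates 2, 3 and 4, with rho of 0.71, 0.74 and 0.73, and in plate 1 rho was 0.37 (n = 83, 72, 63 and 72 cells). Chgb and Vgf gave 0.42, 0.41, 0.43 and 0.43 in plates 1 to 4, the pair with the smallest range. Chgb and Scg3 gave 0.49, 0.45 and 0.48 in plates 2 to 4. For Scg2 with Chga rho was 0.22, -0.08, -0.00 and -0.11, and with Chgb 0.29, 0.17, 0.15 and -0.03.

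Within single classes the values differed from those over all cells. Among Tph1-high cells alone Chga and Chgb gave rho of 0.67, 0.13, 0.78 and 0.59 in plates 1 to 4 (n = 17, 22, 11 and 27). Among peptide-hormone-high cells alone the same pair gave -0.10 in plate 2 and -0.54 in plate 4 (n = 20 and 14). In those cells Scg2 gave positive values with Chgb (0.55 and 0.77) and negative ones with Chga (-0.39 and -0.58).

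**Figure D5:**
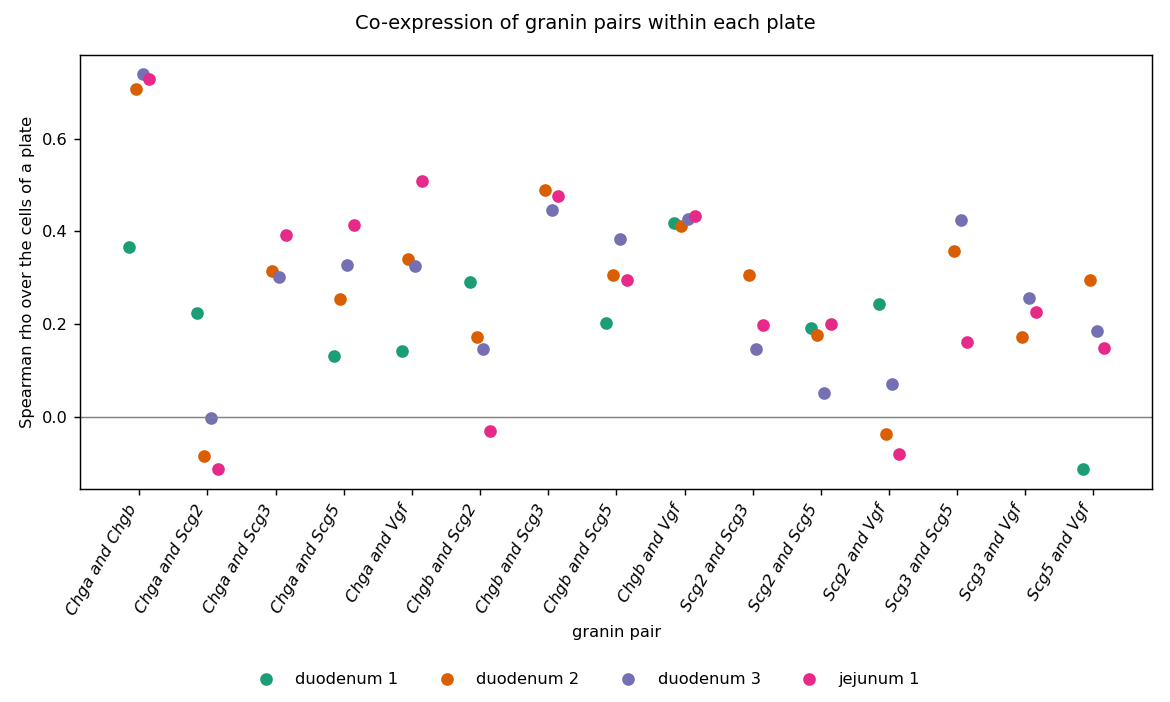
Spearman rho of log2(CPM + 10) for the 15 granin pairs, over all cells of each plate (72, 83, 72 and 63 cells); pairs with Scg3 have no value in plate 1. Chga and Chgb stand highest in plates 2 to 4 (0.71 to 0.74), and Scg2 with Chga lies between -0.11 and 0.22.

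By the number of granins at 100 CPM or more, peptide-hormone-high cells of plates 2 to 4 held means of 3.60, 2.89 and 4.00 of the 6, and Tph1-high cells 3.59, 2.73 and 3.67. The means of the classes thus lay close together within each plate. In plate 1, where Scg3 was at 0, they were 2.00 and 2.18. Neurog3-positive and unclassed cells held 1.58 each over all plates. The 34 goblet or Paneth marker-high cells held 1.29, which is mostly the low Chgb of every cell. That low level counts in the other classes too. Chgb was at 100 CPM or more in all 72, 83 and 63 cells of plates 1, 2 and 4 and in 68 of 72 of plate 3. Chga was so in all 63 of plate 4. A granin counted in these means, or in the sets named next, can therefore lie within the range of goblet or Paneth marker-high cells. The commonest set in peptide-hormone-high cells was Chga, Chgb, Scg2, Scg3 and Scg5 together, in 12 of 45 cells, followed by Chga and Chgb alone in 10. In Tph1-high cells no set led: the commonest, Chga and Chgb alone, was found in 11 of 77, and Chga, Chgb, Scg3 and Vgf in 8. All 6 were found together in 1 Tph1-high cell and in no cell of the other 3 classes.

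The genes most like each granin across all cells were named by the mean of the within-plate rho, among 2505 genes with at least 5 counts in 25% of the cells of every plate. For Chga they were Fev, an enterochromaffin transcription factor (mean rho 0.56 over 4 plates), then Scn3a, Rab3c, Gstt1 and Tac1 (0.51, 0.51, 0.51 and 0.50). Chgb was likest to Scn3a, a voltage-gated sodium channel (0.76), and then to Tac1 (0.73), Vim (0.70), Tph1 (0.70) and Fev (0.67). Scg3, over 3 plates, was likest to Itm2c (0.51), Pam (0.51), the peptide-amidating enzyme, and Cpe (0.45), the carboxypeptidase that trims prohormone ends. The highest values were lower for Scg2 (Sct, the secretin gene, 0.35), Scg5 (Aplp1, 0.34) and Vgf (Gstt1, 0.41).

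The machinery that works on granule cargo was counted from lists that were chosen with earlier results of these data known. Of 6 prohormone-processing genes, Pam and Cpe were called higher in Tph1-high than in unclassed cells by edgeR, with log2 differences of 2.95 ± 0.44 (adjusted p = 0.00826) and 1.38 ± 0.24 (0.0195), and none was lower. In that comparison edgeR called 1.70% of all genes. Cpe was called higher in peptide-hormone-high than in unclassed cells (2.43 ± 0.26, edgeR adjusted p = 0.012), at 1672, 1968 and 1734 CPM in plates 2 to 4 against 279, 212 and 456. None of the 6 was called between Tph1-high and peptide-hormone-high cells. In Neurog3-positive cells, in comparisons named after their values had been seen, Pam was called lower than in Tph1-high cells (log2 difference -4.32 ± 0.64, edgeR adjusted p = 0.02) and Cpe lower than in peptide-hormone-high cells (-2.39 ± 0.34, 0.0412).

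Of 11 tested genes of the granule membrane and its biogenesis, 2 were called higher in Tph1-high than in unclassed cells. These were Slc18a1, the vesicular monoamine transporter that loads serotonin (log2 difference 1.79 ± 0.37, edgeR adjusted p = 0.0465), and Resp18, a granule protein of endocrine cells (4.02 ± 0.75, 0.0288). Of 16 tested exocytosis genes, 1 was called higher there, near the 1.70% of all genes called, namely Rab3c, a small GTPase of secretory vesicles (4.27 ± 0.82, edgeR adjusted p = 0.0334). It stood at 240, 729, 279 and 613 CPM in Tph1-high cells of plates 1 to 4, against 21.9, 39.8, 19.9 and 5.61 in unclassed cells. Neither list had a gene called by edgeR between Tph1-high and peptide-hormone-high cells, or between peptide-hormone-high and unclassed cells. In comparisons named after their values had been seen, Resp18 was called lower in Neurog3-positive than in Tph1-high cells (edgeR adjusted p = 0.0227). It was so near 0 in the former, at 0.721 and 0.144 CPM in plates 2 and 3, that no fold is given. Rab3c was called higher in cells both Tph1-high and Neurog3-positive than in Neurog3-positive cells (log2 difference 5.46 ± 0.94, edgeR adjusted p = 0.00534).

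Among transcription factor genes, Lmx1a, a factor of enterochromaffin cells, was called higher in Tph1-high than in peptide-hormone-high cells (log2 difference 6.02 ± 0.64, edgeR adjusted p = 0.00614). Isl1, a factor of peptide-hormone lineages, was called lower there (edgeR adjusted p = 0.00202). Isl1 stood at 1.57, 0.521 and 1.91 CPM in Tph1-high cells of plates 2 to 4, against 553, 293 and 479 in peptide-hormone-high cells. Levels this near 0 make a fitted fold depend on the prior count, so none is given. Against unclassed cells Lmx1a (4.49 ± 0.52) and Fev (2.19 ± 0.30) were called higher in Tph1-high cells and Isl1 lower, with edgeR adjusted p of 0.00264, 0.00558 and 0.00248. No gene of that list was called in peptide-hormone-high against unclassed cells.

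Over all cells of a plate, Chga stood at 720, 3771 and 1016 CPM in the 3 duodenum plates and at 6618 in the jejunum plate. Chgb stood at 29941, 36892, 16877 and 41092 CPM in plates 1 to 4, and Scg5 at 43.4, 146, 34.5 and 234. Scg2 (82.0, 489, 275 and 433 CPM), Scg3 (0, 205, 74.9 and 254) and Vgf (59.8, 88.5, 35.9 and 80.1) are given in the same order. The jejunum plate was the highest for Chga, Chgb, Scg3 and Scg5, but 1 plate against 3 cannot give an exact two-sided permutation p below 0.25. That test gave 0.25 for Chga and Scg5, 0.5 for Chgb and Scg3, and 0.75 for Scg2 and Vgf. Tissue and plate cannot be told apart, and the plates also held different shares of Tph1-high cells.

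With 1 jejunum plate and no gene called in any term, the test of tissue by class says little about the granins in either direction. In an edgeR fit with a class by tissue term, 0 of 18 granin terms were called and 0 had an unadjusted p under 0.05, with the lowest at 0.187. Of all genes, edgeR called 0.00% (370, 464 and 511 at an unadjusted p under 0.05) in each of the 3 terms: Tph1-high against peptide-hormone-high, Tph1-high against unclassed and peptide-hormone-high against unclassed. The errors were wide. For Chga in the first term the difference between tissues was -0.47 ± 1.14 on the log2 scale, and for Chgb -0.21 ± 0.39.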

How the data were processed

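RNA of single sorted cells from 4 plates was measured with the BD Precise whole-transcriptome kit, 1 plate per deposited sample. The authors deposited 1 table of counts per gene and cell for the whole series, with 29161 genes and 290 cells, of which 29120 genes have a symbol. Per the submitters' processing notes the tools were bcl2fastq 2.17.1.14, cutadapt 1.10, Bowtie2 2.2.8, STAR 2.5.3a, UMI-tools 0.4.4 and HTSeq 0.6.1 with build mm10, without their roles. The largest count was 643177 and 27.9% of the values above 0 were 1, so the counts may hold copies made by PCR, and intervals cover counting error only. For strand use in counting, nothing was stated.

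CPM were computed from the total of each cell. Cells that met more than 1 class rule were left out of the 4 classes. Counts were summed per plate and class where at least 5 cells were present, filtered with filterByExpr, scaled by TMM and tested with edgeR 4.0.16 (quasi-likelihood test, R 4.3.3) in 1 fit over the 4 classes with plate as a block. Classes of a plate come from the same sort and library, which is where the pairing comes from. P-values were adjusted by Benjamini and Hochberg over all genes tested, with a threshold of 0.05. SE is the size of the log2 fold change divided by the square root of F. Detection was also computed after thinning each cell to 100000 counts, and no doublet caller was run. DESeq2 1.42.0, limma 3.58.1 on mean log2(CPM + 10) of cells, other scalings, filters, class limits and plates left out were alternatives. Python 3.11.15, numpy 2.4.6, pandas 2.3.3 and scipy 1.17.1 were used, and the tests were tried on simulated data. Of 92 well names, 88 occur in more than 1 plate, so cells were identified by plate and well together.

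The members and gene lists were chosen with earlier results of these data known. Named genes were the 6 granins, up to 4 genes past the threshold per list and direction, and the 5 genes of highest mean rho per granin. Promoter windows are RefSeq's on GRCm38.p6, and gene spans are GENCODE's on GRCm38. Some results for the transcription factor list are not reported here.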

Additional observations from a re-analysis of the deposited data

How the results depend on the processing

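Of 732 log2 fold changes of granins recomputed under alternatives, 630 kept their direction and side of the threshold, 42 passed it newly, 29 lost it and 31 changed sign. The cause was not tested. The counts of granins called that follow have no share of all genes beside them. They are therefore not read as results about the granins. The number of the 6 granins called was 1 for Tph1-high against peptide-hormone-high cells, and became 3 with DESeq2, 4 with limma, 2 with no filter on low counts, 2 with peptide hormones at 5000 CPM, 0 with Tph1 at 1000 CPM and 0 with sums of 3 cells. For Neurog3-positive against Tph1-high cells it was 2, and became 4 with DESeq2, 4 with sums of 3 cells, 1 with sums of 10 cells, 1 with only those 2 classes and 1 to 1 with a plate left out. For Neurog3-positive against peptide-hormone-high cells it was 1, and became 5 with DESeq2, 2 with limma, 0 with sums of 10 cells, 0 with cells of 2 classes placed in 1, and 0 to 1 with a plate left out. For Tph1-high against unclassed cells it was 2, and became 4 with DESeq2, 4 with limma, 1 with Tph1 at 1000 CPM and 1 to 2 with a plate left out. For peptide-hormone-high against unclassed cells it was 0, and became 1 with RLE size factors, 4 with DESeq2, 2 with no filter, 1 with Tph1 at 1000 CPM, 1 with cells of 2 classes placed in 1 and 3 with limma. For Neurog3-positive against unclassed cells it was 0, and became 1 with DESeq2 and 1 with cells of 2 classes placed in 1. For cells both Tph1-high and Neurog3-positive against Neurog3-positive cells it was 3, and 1 to 2 with a plate left out.

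Without the replicate block of plate, the number of granins called became 0 for Neurog3-positive against peptide-hormone-high cells, 1 for Tph1-high against unclassed cells and 1 for cells of both classes against Neurog3-positive cells.

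Sign changes were of these log2 values, given for a plate left out with the value farthest from it among the 4 fits that each leave out 1 plate. Tph1-high against peptide-hormone-high Scg3 was 0.14 without duodenum replicate 3 (other end -1.39) and 0.68 with sums of 10 cells. Neurog3-positive against peptide-hormone-high Chga was 0.41 with sums of 10 cells, Chgb was 0.75 with Tph1 at 1000 CPM, and with cells of 2 classes placed in 1 Chga was 0.012, Chgb 0.93 and Scg5 0.20. Tph1-high against unclassed Scg2 was -0.29 without duodenum replicate 1 (other end 1.89) and -0.38 with peptide hormones at 5000 CPM. Peptide-hormone-high against unclassed Chga was -0.0082 without duodenum replicate 3, -0.044 without jejunum replicate 1 (other end 0.72), -0.12 with sums of 3 cells, -0.95 with Tph1 at 1000 CPM and -0.25 with peptide hormones at 5000 CPM, and Chgb was -0.27 with Tph1 at 1000 CPM. Neurog3-positive against unclassed Chga was 0.70 without duodenum replicate 2 (other end -2.27), 0.51 with sums of 10 cells and 0.80 with cells of 2 classes placed in 1. Scg3 in that contrast was 0.62 without duodenum replicate 2 (other end -2.35), 0.54 with only those 2 classes, 1.49 with sums of 10 cells and 0.84 with cells of 2 classes placed in 1. Chgb there was 0.48 with Tph1 at 1000 CPM, 2.39 with cells placed in 1 class and 0.24 with limma, Scg5 was 0.68, 1.68 and 0.038 under the same settings, and Scg2 was 0.19 with limma. In cells of both classes, Scg3 against Tph1-high cells was 0.25 without jejunum replicate 1 (other end -2.47), and Scg2 against Neurog3-positive cells was -0.35 without duodenum replicate 1 (other end 2.49).

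The number of all genes called moved by more than 1.5 times in 74 of 122 recomputations, for Tph1-high against peptide-hormone-high cells between 7 and 1531, Neurog3-positive against Tph1-high 1 and 2888, Neurog3-positive against peptide-hormone-high 2 and 1972, Tph1-high against unclassed 109 and 2437, peptide-hormone-high against unclassed 2 and 1970, and Neurog3-positive against unclassed 0 and 1607. The number of granins called under an alternative cannot be read without the number of all genes it called, which is given here only as a range. Neurog3-positive sums of 5 cells existed in 2 plates only.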
